A study of Mus musculus with 6 samples.

Results

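The genes described here are 9 genes that mark a regenerative or fetal-like state of the intestinal epithelium: Clu, Ly6a, Anxa1, Anxa3, Il33, Il1rn, Cyr61, Ctgf and Ankrd1. They were chosen by name, and all 9 were found among the 24736 gene symbols of the deposited RNA sequencing table, which uses the older symbols Cyr61 and Ctgf for Ccn1 and Ccn2. RNA was taken from intestinal crypts that the authors released from the whole length of the gut with cold EDTA. The mice were males of 12 weeks, 3 WT and 3 Mtg16-/-, with 1 library each, and the question was how loss of MTG16, a transcriptional co-repressor encoded by Cbfa2t3, alters crypt gene expression. Apart from Mtg16 no allele or agent is named for either group. The labels call the knockout CRISPR-induced, the study's methods describe the Mtg16-/- line as a gift from another laboratory, and the strain and the cells in which the gene was lost are not stated beyond this. Expression is given as TPM, a length-corrected share of all transcripts for which every library sums to the same total, so levels of different genes can be compared but the number of reads behind a value is unknown.

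When crypts are injured by radiation or inflammation, part of the epithelium leaves its resting stem cell state and takes on a transient state that resembles the fetal gut. Clu marks the rare revival stem cells that rebuild crypts after such injury, Ly6a and annexins mark the fetal-like repairing epithelium, and the co-activator YAP, which binds DNA through TEAD factors, drives this state in mice. Cyr61, Ctgf and Ankrd1 are widely used direct targets of YAP. Il33 encodes an alarm cytokine of the interleukin 1 family that damaged barrier cells release, and Il1rn encodes the secreted antagonist of the interleukin 1 receptor. All 9 genes were at a low level or listed at 0 in these crypts. Ly6a was lower in every Mtg16-/- library than in every WT library, but neither Ly6a nor any other of the 5 genes that could be tested passed the test across all genes.

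The starts of several of these genes carry the letters that TEAD factors prefer, and their upstream sequences are shown because the YAP targets are read together below. RefSeq promoters on GRCm38.p6, the assembly of the mm10 build named in the submitters' processing notes, were given for 5 of the 9 genes, Anxa1, Il33, Il1rn, Cyr61 and Ankrd1, in 8 entries. The motif GGAATG, or CATTCC on the other strand, was found within 250 bases before the start in 6 of the 8 entries, and in 12.6% of all 32851 promoters of this table. These 8 entries are not independent, since 2 of the 3 Il1rn entries overlap. Each line gives the 250 bases before the annotated start, 5′ to 3′ on the gene's strand, with the motif in capitals.
Cyr61, chr3:145649986-145650235, minus strand: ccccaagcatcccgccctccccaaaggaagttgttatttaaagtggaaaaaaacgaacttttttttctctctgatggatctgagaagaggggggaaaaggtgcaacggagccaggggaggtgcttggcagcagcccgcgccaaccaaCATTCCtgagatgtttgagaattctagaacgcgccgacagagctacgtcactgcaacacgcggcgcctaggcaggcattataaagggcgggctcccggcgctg
Ankrd1, chr19:36119845-36120094, minus strand: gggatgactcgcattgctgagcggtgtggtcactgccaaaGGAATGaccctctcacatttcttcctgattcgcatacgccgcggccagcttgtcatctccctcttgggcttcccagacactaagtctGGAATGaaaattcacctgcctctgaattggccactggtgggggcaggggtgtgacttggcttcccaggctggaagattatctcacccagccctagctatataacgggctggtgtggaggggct
Il33 upstream start, chr19:29924863-29925112, plus strand: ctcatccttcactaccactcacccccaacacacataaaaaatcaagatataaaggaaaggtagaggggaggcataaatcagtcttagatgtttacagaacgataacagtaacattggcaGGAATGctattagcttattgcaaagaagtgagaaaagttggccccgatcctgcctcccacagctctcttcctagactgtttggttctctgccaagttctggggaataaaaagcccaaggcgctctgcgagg
Anxa1, chr19:20390672-20390921, minus strand: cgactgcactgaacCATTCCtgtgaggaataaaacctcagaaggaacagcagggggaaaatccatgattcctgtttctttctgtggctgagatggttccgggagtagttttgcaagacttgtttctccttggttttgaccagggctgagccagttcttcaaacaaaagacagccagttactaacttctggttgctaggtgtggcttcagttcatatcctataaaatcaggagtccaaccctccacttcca
The motif began 103 bases before the start in Cyr61, at 210 and 123 bases in Ankrd1, at 131 bases in this Il33 entry and at 236 bases in Anxa1. A match of these letters is a description of the sequence and shows no binding. The AP-1 motif TGANTCA, which is its own reverse complement, was found in 1 of the 8 entries, an Il1rn promoter not printed here, and in 6.75% of all promoters.

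The libraries held intestinal epithelium by their markers. Epcam had a TPM between 1087 and 1375, and the summed TPM of 8 epithelial markers lay between 9788 and 11159. The markers were split, with 4 positive and 4 negative differences, and none was called. Cdx2 and Krt18 were higher in Mtg16-/- without overlap, with differences of 0.45 and 0.19 (limma adjusted p = 0.265 and 0.510). Cbfa2t3, the targeted gene, was at 3.67, 6.69 and 4.52 TPM in WT and at 4.62, 6.43 and 3.23 TPM where the label says Mtg16-/-, so its total level did not separate the genotypes and every direction below rests on the labels. Across the 12268 genes that averaged 1 TPM or more, limma's moderated test on log2(TPM + 1) called 4 genes at a Benjamini-Hochberg adjusted p under 0.1, or 0.0326%, and the median difference of all tested genes, Mtg16-/- minus WT, was -0.03. WT replicate 1 stood apart in differentiated cells, with a summed TPM of 33459 for 9 enterocyte markers against 11366 and 14123 in the other WT libraries and 5829 to 11466 in Mtg16-/-.

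Of the 9 genes, 5 reached a mean TPM of 1 over all libraries: Clu, Ly6a, Anxa3, Il33 and Cyr61. Each of the 5 also had a mean above 1 in both groups, so none entered through 1 group alone. Anxa1, Il1rn, Ctgf and Ankrd1 did not reach the limit and were not tested. By mean TPM the tested genes stood between percentiles 52.9 and 62.8 of all gene symbols, and 9205 symbols had a higher mean than Il33, the highest of the 9. None of the 5 was called, against 0.0326% of all tested genes, and 2 of the 5, Ly6a and Anxa3, had an unadjusted p under 0.05 with a lower level in Mtg16-/-, a class that held 8.05% of all tested genes. The same 2 genes were without overlap between the groups, which held for 11.1% of all tested genes in this direction. None of the 5 had an unadjusted p under 0.05 with a higher level in Mtg16-/-, or higher values there without overlap, classes that held 6.53% and 9.94% of all tested genes. All 5 differences were negative, with a median of -0.61.

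**Figure D1:**
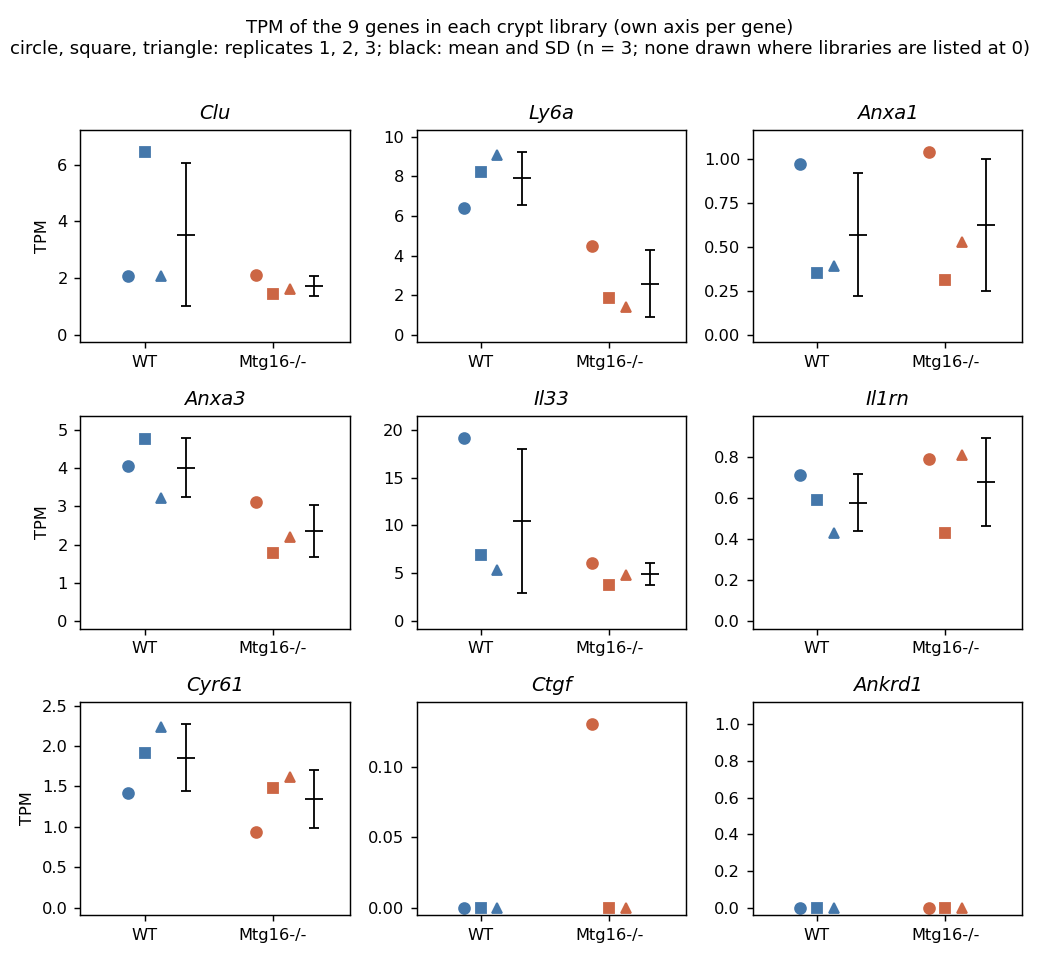
TPM (vertical axis, a separate scale for each gene) of the 9 genes in each library, WT in blue and Mtg16-/- in orange, with circles, squares and triangles for replicates 1, 2 and 3 and the mean and SD in black. Ly6a and Anxa3 show no overlap between the groups, WT replicate 2 stands alone in Clu and WT replicate 1 in Il33, and Ctgf and Ankrd1 lie at or near 0.

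Ly6a encodes Sca-1, a small GPI-anchored protein of the Ly6 family at the cell surface, and lies on chromosome 15 from 74994877 to 74998031. WT mice had 6.41, 8.22 and 9.05 TPM, and Mtg16-/- mice had 4.51, 1.88 and 1.40. The 3 WT mice were close together, while Mtg16-/- replicate 1 was nearer to WT than the other Mtg16-/- mice, and the groups did not overlap. The WT mean of 7.89 ± 1.35 TPM stood against 2.60 ± 1.67 in Mtg16-/- (SD, n = 3 each), a ratio of 3.04 between the means. The difference in log2(TPM + 1) was -1.39 (standard error 0.31, 95% confidence interval from -2.11 to -0.67, limma adjusted p = 0.225). In the exact permutation test, two-sided, p was 0.1, the smallest that 3 mice against 3 allow. The difference lay between -1.75 and -1.15 when each mouse was left out in turn, and it was -1.73 with a pseudocount of 0.1 in place of 1.

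Ly6a shares part of its sequence with other genes of its family, so its TPM can depend on how shared reads were divided. Of the 1297 different 50-base windows in its GENCODE transcripts, 246, or 19.0%, also occurred in transcripts of other genes, among them Ly6c1, Ly6c2 and Ly6i. In the table Ly6c1, Ly6c2 and Ly6i were low, between 0 and 1.23 TPM. Summed with Ly6a they gave 7.53, 9.16 and 9.74 in WT and 5.74, 1.88 and 1.40 in Mtg16-/-. The sums of the 4 genes also had no overlap between the groups. In the annotation Ly6a, Il33 and Ctgf each overlap 1 predicted gene, none of them in the table, and how reads of the opposite strand were treated is not given in the sources used here. For Anxa3 1.79% and for Il1rn 0.126% of windows were shared with other genes.

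Among 15 genes of the wider Ly6 family, Ly6a included, 5 were tested, none was called, and all 5 had a negative difference, with a median of -0.37. Lypd8, which encodes a secreted protein that keeps flagellated bacteria away from the epithelium, was by far the most abundant, with a TPM between 2541 and 3260 in WT and between 1953 and 2643 in Mtg16-/-. Its difference was -0.41 (standard error 0.21, limma adjusted p = 0.394) and its groups overlapped. Ly6e, which encodes another membrane protein of the family, had a TPM of 104, 111 and 145 in WT and 87.8, 98.9 and 101 in Mtg16-/-, without overlap and with a difference of -0.31 (limma adjusted p = 0.383). Ly6a was thus a minor transcript of its family in these crypts, and 5 of the 15 genes, Ly6f, Ly6g, Ly6h, Ly6i and Lypd2, were listed at 0 in every library.

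Anxa3 and Anxa1 encode annexins, proteins that bind membrane phospholipids when calcium rises. Anxa3, on chromosome 5 from 96793385 to 96845968, had a TPM of 4.06, 4.76 and 3.21 in WT and of 3.11, 1.77 and 2.19 in Mtg16-/-. The groups did not overlap, but the lowest WT mouse and the highest Mtg16-/- mouse were close. The difference was -0.59 (standard error 0.22, 95% confidence interval from -1.10 to -0.07, limma adjusted p = 0.311), with 4.01 ± 0.776 against 2.36 ± 0.685 TPM (SD, n = 3 each). When each library was rescaled by its median ratio, the groups of Anxa3 overlapped. Anxa1, on chromosome 19 from 20373434 to 20390671, was below the limit for testing, with a TPM of 0.97, 0.35 and 0.39 in WT and of 1.04, 0.31 and 0.53 in Mtg16-/-. Replicate 1 was the highest mouse of both groups in Anxa1 and the groups overlapped fully. Without the filter on low values its difference was 0.05 (95% confidence interval from -0.45 to 0.55).

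The annexin family shows where these genes stand. Of 12 annexins, Anxa1 and Anxa3 included, 9 were tested, 4 with a positive and 5 with a negative difference, none was called, and the median was -0.01. Anxa2, which encodes the annexin of the S100A10 complex at the plasma membrane, had a TPM of 1247, 813 and 665 in WT and of 645, 461 and 441 in Mtg16-/-, without overlap and with a difference of -0.79 (standard error 0.26, limma adjusted p = 0.281). WT replicate 1, the highest library for Anxa2, also had the highest enterocyte sum, and the part of enterocytes in the Anxa2 difference was not tested. Anxa5, which encodes the phosphatidylserine-binding annexin, went the other way without overlap, from 8.12 to 9.82 TPM in WT and from 10.3 to 12.4 in Mtg16-/-, a difference of 0.33 (limma adjusted p = 0.347). Anxa7 also had higher values in Mtg16-/-, with a difference of 0.32 (limma adjusted p = 0.307). The fetal-like markers Anxa1 and Anxa3 were thus far below Anxa2 and Anxa4 in level, and Anxa4 had 675 to 890 TPM in WT and 707 to 824 in Mtg16-/-.

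Clu encodes clusterin, a secreted chaperone, and lies on chromosome 14 from 65968483 to 65981548. Its TPM was 2.08, 6.46 and 2.08 in WT and 2.11, 1.43 and 1.62 in Mtg16-/-. A single mouse, WT replicate 2, held the high value, and the other WT mice lay within the Mtg16-/- range. The difference was -0.61 (standard error 0.36, 95% confidence interval from -1.44 to 0.21, limma adjusted p = 0.442), and it was -0.19 without WT replicate 2. The exact permutation test, two-sided, gave p = 0.3. No 50-base window of Clu transcripts was shared with another gene.

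WT replicate 2 was also the highest library for other genes of low level. Anxa10 and Ctse, genes of the stomach epithelium, had a TPM of 5.03 and 7.99 there, against at most 0.87 and 2.01 in any other library. Pdgfrb, a receptor of pericytes and fibroblasts, had 3.90 TPM in this library and between 0.86 and 1.83 in the others. The part of these cells in the value of Clu was not tested.

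Il33, on chromosome 19 from 29925113 to 29960718, had a TPM of 19.1, 6.97 and 5.40 in WT and of 6.10, 3.78 and 4.82 in Mtg16-/-. WT replicate 1 was far above all other mice, and Mtg16-/- replicate 1 lay above WT replicate 3, so the groups overlapped. The difference was -0.79 (standard error 0.40, 95% confidence interval from -1.72 to 0.14, limma adjusted p = 0.398), and -0.29 without WT replicate 1. That library also had the highest sums of enterocyte and leukocyte markers, 33459 and 141 TPM, and their part in the Il33 value was not tested. Il1rn, on chromosome 2 from 24336860 to 24351491, was below the limit for testing, with a TPM of 0.71, 0.59 and 0.43 in WT and of 0.79, 0.43 and 0.81 in Mtg16-/-. The values of Il1rn overlapped fully, and without the filter its difference was 0.08 (95% confidence interval from -0.23 to 0.40).

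The interleukin 1 system was read as a list of 19 cytokines, receptors and regulators that includes Il33 and Il1rn. Of these 15 were matched by symbol and 5 were tested, Il33 itself and 4 other genes. All 5 had a negative difference and none was called, and the median of -0.79 is the value of Il33. Il18, an epithelial cytokine of this family, had a TPM of 119, 43.8 and 50.2 in WT and of 33.1, 19.7 and 29.8 in Mtg16-/-, without overlap and with a difference of -1.22 (standard error 0.37, limma adjusted p = 0.267). Il18bp, which encodes its soluble inhibitor, had 6.69 to 11.7 TPM in WT and 2.12 to 5.99 in Mtg16-/-, a difference of -0.91 (limma adjusted p = 0.307). Sigirr, a receptor that dampens interleukin 1 signals, had 24.6 to 28.3 TPM in WT and 17.4 to 22.6 in Mtg16-/-, a difference of -0.41 (limma adjusted p = 0.286). The 3 genes had no overlap between the groups, which held in this direction for 11.1% of all tested genes. WT replicate 1, the library with the highest enterocyte sum, was also the highest in Il18. The part of enterocytes in the Il18 difference was not tested. Il1rl1, the receptor of interleukin 33, had at most 0.19 TPM, and Il1a was listed at 0 in all libraries.

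The YAP targets were at the low end. Cyr61 encodes a matricellular protein of the CCN family and lies on chromosome 3 from 145646971 to 145649985. Its TPM was 1.42, 1.91 and 2.24 in WT and 0.94, 1.48 and 1.62 in Mtg16-/-. The groups overlapped, since both higher Mtg16-/- mice lay above WT replicate 1. The difference was -0.29 (standard error 0.23, 95% confidence interval from -0.82 to 0.25, limma adjusted p = 0.568), and -0.15 without Mtg16-/- replicate 1, and the exact permutation test, two-sided, gave p = 0.3. Ctgf, which encodes another matricellular CCN protein and lies on chromosome 10 from 24595442 to 24598683, had 0.13 TPM in Mtg16-/- replicate 1 and was listed at 0 in the other 5 libraries. Ankrd1, which encodes an ankyrin repeat protein known from heart muscle and lies on chromosome 19 from 36111965 to 36119844, was listed at 0 in all 6. Of the promoters printed above, that of Ankrd1 holds 2 copies of the TEAD motif and that of Cyr61 holds 1. The other CCN genes were also near 0, with at most 0.14 TPM for Wisp2 and 0.10 for Nov.

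**Figure D2:**
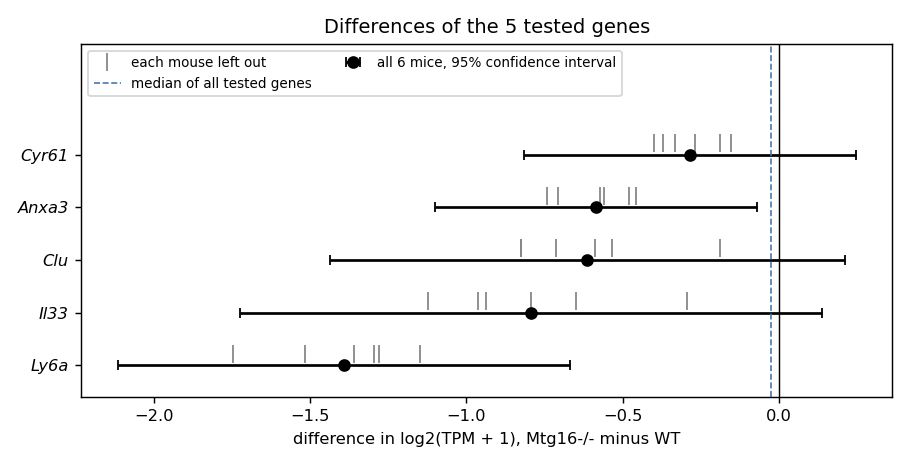
Difference in log2(TPM + 1), Mtg16-/- minus WT (horizontal axis), for the 5 tested genes, with points and bars for all 6 mice and their 95% confidence interval and grey ticks for the fits that left out each mouse. The interval lies below 0 for Ly6a and Anxa3, and the tick nearest to 0 is at -0.19 for Clu, without WT replicate 2, and at -0.29 for Il33, without WT replicate 1.

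The other YAP targets lay on both sides of 0. Of 22 other YAP target genes known mainly from cultured cells 13 were tested, 6 with a positive and 7 with a negative difference, and the median of -0.02 was close to the -0.03 of all tested genes. None was called. F3, which encodes tissue factor, the starter of blood clotting, was the single tested gene of the list without overlap, with 1.82 to 2.95 TPM in WT and 2.98 to 4.29 in Mtg16-/-, a difference of 0.57 (standard error 0.22, limma adjusted p = 0.312). Tgm2, which encodes a transglutaminase, had the highest level of the list, with 115 to 139 TPM in WT, 121 to 131 in Mtg16-/- and a difference of -0.02. Of 23 Hippo pathway and TEAD components 18 were tested, 9 in each direction, with a median of 0.00 and none called. Nf2, which encodes merlin, an activator of the Hippo kinases, had 55.8 to 64.7 TPM in WT and 45.4 to 54.9 in Mtg16-/-, and Tead3 had 26.6 to 28.0 and 22.7 to 26.3. Both were lower without overlap, with differences of -0.25 and -0.19 (limma adjusted p = 0.391 and 0.471). Such lower values were found in 2 of the 18, against 11.1% of all tested genes. Higher values without overlap were found in 1 of the 13 YAP targets, F3, against 9.94% of all tested genes. The mRNA of YAP itself, looked up after the values were seen, had 36.8 to 46.9 TPM in WT and 39.6 to 46.4 in Mtg16-/-, a Yap1 difference of 0.05 (limma adjusted p = 0.875).

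Of 18 other fetal-like and repair genes 13 were tested, 5 with a positive and 8 with a negative difference, with a median of -0.31 and none called. Anxa2, described above, had lower values without overlap, and Anxa5 had higher values without overlap. Gja1, Spp1 and Msln, surface and secreted markers of fetal gut spheroids, had at most 0.73 TPM and were not tested. Spp1, which encodes osteopontin, had 0.63, 0.35 and 0.57 TPM in WT and 0.11 in Mtg16-/- replicate 1, and was listed at 0 in the other Mtg16-/- libraries. Krt7, the most abundant gene of the list after Anxa2, had a difference of -0.03, and Emp1, next in level, had one of -0.80 with groups that overlapped.

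**Figure D3:**
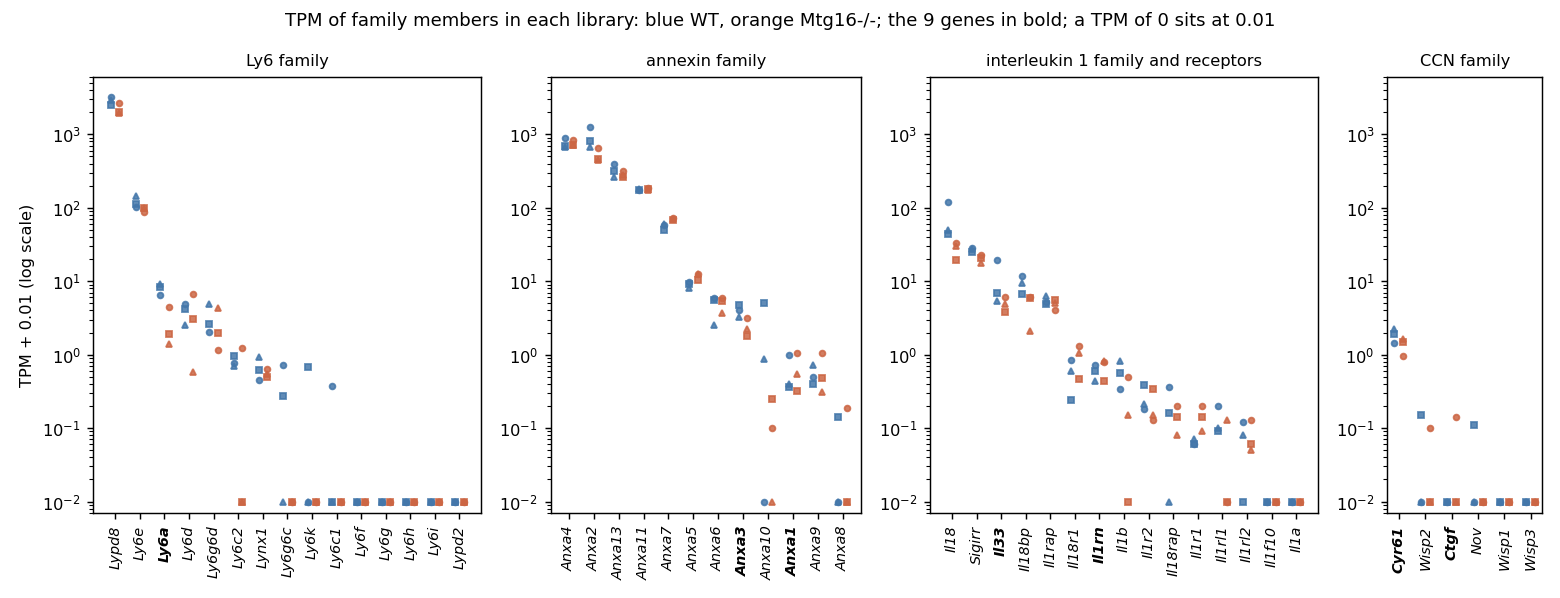
TPM plus 0.01 (logarithmic vertical axis) of the genes of 4 families in each library, WT in blue and Mtg16-/- in orange, ordered by mean level with the 9 genes in bold, so a gene listed at 0 sits at 0.01. Lypd8, Anxa4, Anxa2 and Il18 lead their families, and Ly6a, Anxa3, Anxa1, Il33 and Il1rn lie well below them.

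Cells other than crypt epithelium can express several of these genes, so their markers were read in the same libraries. In bulk RNA, fewer cells of a type and less RNA per cell cannot be told apart. The 8 fibroblast markers summed to 2.50 to 6.54 TPM in WT and 4.24 to 6.65 in Mtg16-/-, with Col3a1 highest at 0.42 to 1.79 TPM and Lum listed at 0. The 8 smooth muscle and pericyte markers summed to 3.55 to 8.22 TPM in WT and 4.14 to 4.94 in Mtg16-/-, and 2 of them were tested, 1 in each direction. The 8 endothelial markers summed to 1.43 to 3.07 TPM in WT and 1.40 to 2.59 in Mtg16-/-. Within the endothelial list Cdh5 had 0.06 to 0.33 TPM in WT and was listed at 0 in Mtg16-/-, while Vwf had 0.07 to 0.26 in WT and 0.38 to 0.50 in Mtg16-/-. Pdgfrb was lower in Mtg16-/- without overlap, with a difference of -0.66 (limma adjusted p = 0.345). Myh11, of the same smooth muscle and pericyte list, had a difference of 0.17 with groups that overlapped. Acta2, also of that list and below the limit for testing, had 0.21 to 0.43 TPM in WT and 0.49 to 0.83 in Mtg16-/-. The sums of these stromal and vascular lists were of a size with the TPM of Clu and Cyr61. The part of such cells in the levels of the 9 genes was not tested. Leukocyte markers were higher, with sums of 141, 74.4 and 82.1 TPM in WT and of 94.9, 63.6 and 42.5 in Mtg16-/-, and with Cd3g at 13.1 to 43.3 and 8.16 to 19.2. Of 9 tested leukocyte markers 8 had a negative difference, with a median of -0.38, S100a8 was listed at 0, and the sums overlapped. The part of leukocytes in the level of Ly6a or Il33 was not tested.

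All 9 enterocyte markers had a negative difference, with a median of -1.20, and none was called. Fabp1, a fatty acid carrier, and Apoa4, a lipoprotein component, were without overlap, with differences of -1.99 and -1.85 (limma adjusted p = 0.225 and 0.247). WT replicate 1 had the highest enterocyte sum and the lowest Ly6a of the WT mice, while in Mtg16-/- the sums of 11466, 6351 and 5829 TPM ran in the order of Ly6a. The part of enterocytes in the Ly6a difference was not tested. The 5 tested colon markers were split, with a median of 0.18, and Mettl7b had lower values in Mtg16-/- without overlap, at -0.68 (limma adjusted p = 0.306).

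Ly6a is also induced by interferon, and 14 of 16 interferon-induced genes were tested. Among these, 11 had a negative difference, with a median of -0.69, and none was called. Lower values in Mtg16-/- without overlap were found in 4 of the 14, against 11.1% of all tested genes. Bst2, which encodes the antiviral tether tetherin, had a TPM of 15.7, 18.2 and 17.1 in WT and of 9.51, 8.97 and 8.65 in Mtg16-/-, a difference of -0.84 (standard error 0.13, limma adjusted p = 0.104). Isg15, a ubiquitin-like modifier, had 17.2, 7.88 and 10.95 in WT and 6.73, 4.55 and 1.81 in Mtg16-/-, a difference of -1.33 (limma adjusted p = 0.265). Both genes were separated by group as Ly6a was, while Ifit2 had higher values in Mtg16-/- without overlap, with a difference of 0.35 (limma adjusted p = 0.437). The summed TPM of the 16 genes overlapped, with 419 to 674 in WT and 291 to 539 in Mtg16-/-, and its part in the Ly6a difference was not tested.

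Cyr61 belongs to the genes that respond within minutes to handling or serum, so immediate early and heat shock genes were read beside it. Of 14 tested genes 13 had a negative difference, with a median of -0.55, and none was called. Hspa1b, an inducible HSP70 gene, had a TPM of 7.21, 8.51 and 15.4 in WT and of 2.07, 1.66 and 1.06 in Mtg16-/-, a difference of -2.08 (standard error 0.29, limma adjusted p = 0.104). Hsph1, an HSP110 chaperone, had a difference of -1.88 at the same adjusted p from limma. Hspa1a and Fosb were also lower without overlap, at -1.51 and -1.03 (limma adjusted p = 0.225 and 0.306). The sums of the list did not overlap, with 623, 445 and 603 TPM in WT and 389, 355 and 271 in Mtg16-/-, and their part in the values of Cyr61 was not tested.

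**Figure D4:**
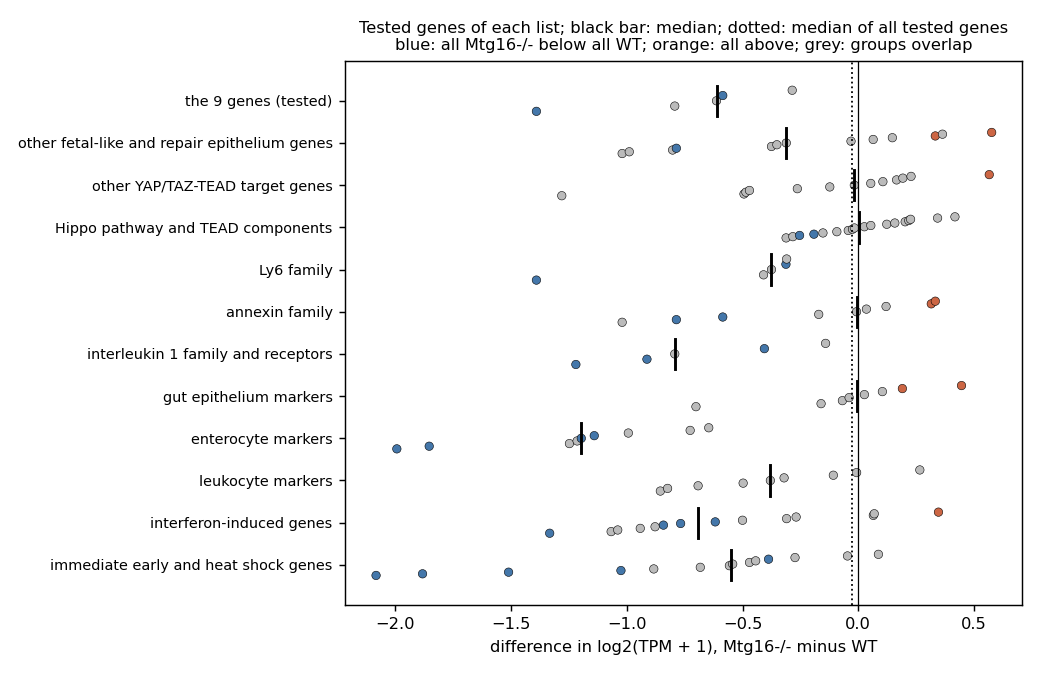
Difference in log2(TPM + 1), Mtg16-/- minus WT (horizontal axis), of the tested genes of each list (rows), with a black bar at the list's median and colours for groups without overlap. The lists of YAP targets and Hippo components lie around 0, with medians of -0.02 and 0.00, while enterocyte, interferon and immediate early lists have medians of -1.20, -0.69 and -0.55.

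**Figure D5:**
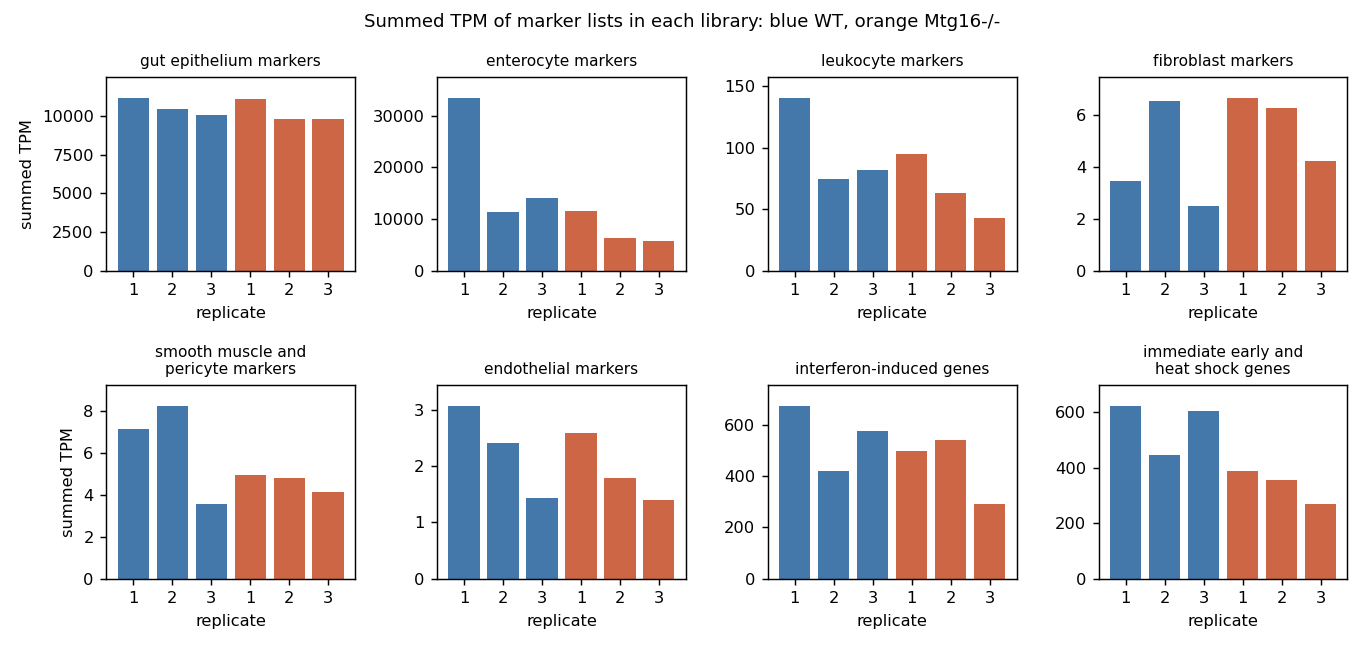
Summed TPM (vertical axis, from 0) of 8 marker lists in each library, WT in blue and Mtg16-/- in orange, by replicate number. Fibroblast and endothelial sums stay at or below 6.65 TPM, and the enterocyte sum of WT replicate 1, 33459 TPM, stands above all others.

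For each of the 5 tested genes the tested genes with the most similar profile, at most 3, were listed, by the root-mean-square difference of log2(TPM + 1) over the 6 libraries after centring each gene. For Ly6a these were Oxct2a, Parm1 and Oas1g, at 0.29, 0.29 and 0.32, and no tested gene came within 0.2 of its profile. Parm1 had a TPM of 14.8, 15.3 and 22.4 in WT and of 8.14, 6.17 and 6.30 in Mtg16-/-. Clu was nearest to Vpreb3 and Pdgfrb, at 0.15 and 0.18, genes with their highest TPM in WT replicate 2. Il33 was nearest to Prrx1, Gm5485 and Cxcl11, at 0.14, 0.17 and 0.17, with their highest TPM in WT replicate 1. Anxa3 was nearest to Fdps, Cyp51 and Fdft1, at 0.10, 0.10 and 0.11. Cyr61 was nearest to Hspd1, Mrpl12 and Fads1, at 0.02, 0.07 and 0.07, but 1393 tested genes came within 0.2 of its flat profile, against 96 for Anxa3, 9 for Il33 and 3 for Clu.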

How the data were processed

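Total RNA of crypts from 3 WT and 3 Mtg16-/- mice was depleted of ribosomal RNA and sequenced. The authors deposited gene-level TPM from RSEM, rounded to 2 decimals, with 1 column per library. The submitters' processing notes name cutadapt 1.9.1, STAR 2.5.2a, RSEM 1.3.0, DESeq2 1.12.3 and mm10, and the strand setting of the quantification is not given in the sources used here. TPM keeps no read number, so depth and counting error are unknown, and DESeq2, the study's test, was not run because it needs counts.

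Genes that averaged 1 TPM or more over the 6 libraries were tested on log2(TPM + 1) with limma 3.58.1 (R 4.3.3, lmFit and eBayes with an intensity trend, no covariates). P-values were adjusted over all tested genes by the Benjamini-Hochberg method and called under 0.1. On this scale the change of a low gene comes out too small. Mice were the replicates, numbered from the labels. The fit was checked on simulated libraries with known changes. Their errors were drawn independently for each gene and library, so the check cannot show how the fit handles deviations that many genes share. Positions and promoters came from RefSeq GRCm38.p6 and transcripts from GENCODE vM21.

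The members and lists were chosen with earlier results of these data known. Named genes were the 9 members, up to 4 tested genes of each list without overlap between the groups, the most abundant where a list had fewer than 2, and the 3 most similar profiles. Acta2, Anxa4, Anxa10, Ctse, Emp1, Epcam, Il1rl1, Il1a, Ifit2, Krt7, Spp1, Yap1 and genes listed at or near 0 were named after their values were seen. A few genes that the rule names are not reported here. Alternatives were another pseudocount, other filters, rescaling, moderation settings, weights for libraries, a replicate block, leaving out 1 mouse at a time and an adjusted p under 0.05.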

Additional observations from a re-analysis of the deposited data

How the results depend on the processing

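The 5 tested genes, Ly6a, Anxa3, Il33, Clu and Cyr61, kept a negative difference in every alternative run for them, 15 each for Ly6a and Il33 and 14 each for the others, which fall under a mean TPM of 5. The ranges were -1.75 to -1.15 for Ly6a, -0.76 to -0.46 for Anxa3, -1.12 to -0.29 for Il33, -0.83 to -0.19 for Clu and -0.45 to -0.15 for Cyr61. Their limma adjusted p stayed above 0.1 except for Ly6a in 2 alternatives, so the number called was 1 with array weights (adjusted p = 0.0336) and 1 with the replicate block (adjusted p = 0.0441), and over all its alternatives the adjusted p of Ly6a lay between 0.0336 and 0.586. The deviations of same-numbered mice from their group means correlated across genes with r = 0.429, 0.0753 and 0.237. With 1 of the 3 values under 0.1 and no shared handling stated, the numbers were not taken as pairs. WT replicate 2 correlated best with Mtg16-/- replicate 3 (0.198), while every other library correlated best with its own number. The values of mice with different numbers lay between -0.331 and 0.198. Whether the mice were handled in pairs is not known. Across all genes the replicate block called 1201 genes and array weights 855, against 4 without them. The count was 0 with no filter, 15 with a mean TPM of at least 5, 1 with median-ratio rescaling, 1 with quantile normalization, 0 with no intensity trend, 20 with robust moderation, 0 at an adjusted p under 0.05 and between 0, without Mtg16-/- replicate 3, and 20, without WT replicate 1, with each mouse left out. The number of tested members without overlap fell from 2 to 1 with median-ratio rescaling, where Anxa3 overlapped, and lay between 2 and 4 with each mouse left out. It was 4 without Mtg16-/- replicate 1, where 20.4% of all tested genes were lower without overlap. The cause of these shifts was not tested. Levels near 1 TPM rest on few reads of unknown number, which limits Cyr61, Anxa1, Il1rn and Ctgf.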
